A study of Mus musculus with 13 samples.

Results

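The Hox cluster genes are the 39 genes of the mouse Hoxa, Hoxb, Hoxc and Hoxd clusters. They were taken as every row whose gene symbol is Hox, a cluster letter a to d and a paralog number, and they make up 39 of the 23845 genes measured (11 Hoxa, 10 Hoxb, 9 Hoxc and 9 Hoxd). RNA-seq was done on 13 cell lines grown from primary mammary tumours of FVBN/J mice, of which 6 carried the genotype label wild type (WT) and 7 the label JNK knockout (KO). The c-Jun N-terminal kinases (JNK) are stress-activated protein kinases, and the series title places the lines in work on HER2-driven breast cancer. All lines were started from tumour tissue in 2% fetal bovine serum on collagen I and later kept in 10% serum with 20 ng/ml EGF and 10 μg/ml insulin, and total RNA was sequenced in 150-base read pairs. The driver transgene, the JNK alleles, any Cre, the age of the animals, the passage at harvest and any batch are not stated in the labels. Titles of WT and knockout lines begin with different letters, so differences of colony or handling cannot be told apart from genotype. Replicate numbers follow accession order and pair nothing. The titles of WT replicates 4 and 5 hold a common number, and the labels do not say whether 1 animal gave both. The p-values therefore measure only the spread between these lines.

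Hox genes encode homeodomain transcription factors that give cells their position along the body axis of the embryo. Each cluster lies in a row on its chromosome, and genes at the 3′ end (low paralog numbers) come on earlier and more anteriorly than those at the 5′ end. Retinoic acid activates the 3′ genes, Polycomb complexes keep clusters silent and Trithorax complexes keep them active, while TALE homeodomain proteins such as Pbx and Meis bind DNA together with Hox proteins. In the mammary gland, Hoxa9, Hoxb9 and Hoxd9 are together needed for growth of the gland in pregnancy, and HOXA5, HOXB7 and HOXB9 have been studied in human breast cancer.

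The JNK genes were checked first, though the labels do not say which were targeted. Mapk8 was at 24.0 to 37.3 CPM (reads scaled to library size) in the WT lines and 4.33 to 8.33 in the knockout lines, and Mapk9 at 55.0 to 73.1 and 8.9 to 24.7, so both separated the groups. Libraries held 38298602 to 46689809 reads assigned to genes. The general epithelial markers summed to 7055 to 8871 TPM (transcript abundance scaled for gene length and library size) in WT lines and 1161 to 4177 in knockout lines. Of 10 tested markers of that list, 2 were lower in knockout lines at an edgeR adjusted p under 0.05, Krt8 and Krt18, and 0 were higher. The same 2 genes were the largest parts of the sum in every line. Basal keratins and other basal markers summed to 69.84 to 314.0 and 586 to 23520, with 5 of 7 tested basal markers higher in the knockout lines. Fibroblast and mesenchyme markers summed to 147.3 to 938.1 and 52.32 to 3862. Of 12 tested markers of that list, 2 were lower in knockout lines at the same threshold, Col1a1 and Col1a2, and 0 were higher. Over all 13058 genes tested, 4.33% were higher and 4.17% lower at that threshold. Endothelial markers reached at most 1.11 TPM in sum, and leukocyte markers 3.57 to 33.46 TPM. WT replicate 3 and knockout replicate 2 held the highest fibroblast and mesenchyme sum of their groups. Most of that sum was 1 gene, Vim, at 654.25 of 938.1 TPM in WT replicate 3 and 3774.03 of 3862 in knockout replicate 2. The part of these markers in the Hox results was not tested, except where values are given below.

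Most lines expressed a short stretch of Hoxb and little else of the 39 genes. At a level of at least 1 TPM, 14 members were detected in some line, 6 of Hoxa and 8 of Hoxb, and none of Hoxc or Hoxd. Hoxb2, Hoxb3 and Hoxb4 were detected in at least 11 of the 13 lines, and no member was detected in all 13. There were 10 members with no read in any line (2 Hoxa, 1 Hoxb, 2 Hoxc and 5 Hoxd), which allows each at most 0.0055 CPM over all lines. That limit is 3 reads over the summed libraries and covers counting error only. The 12 members with paralog numbers 10 to 13, the 5′ ends of the clusters, reached at most 0.42 TPM, and 7 of them had no read. Among the 27 members with paralog numbers 1 to 9, 14 were detected and 3 had no read.

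**Figure D1:**
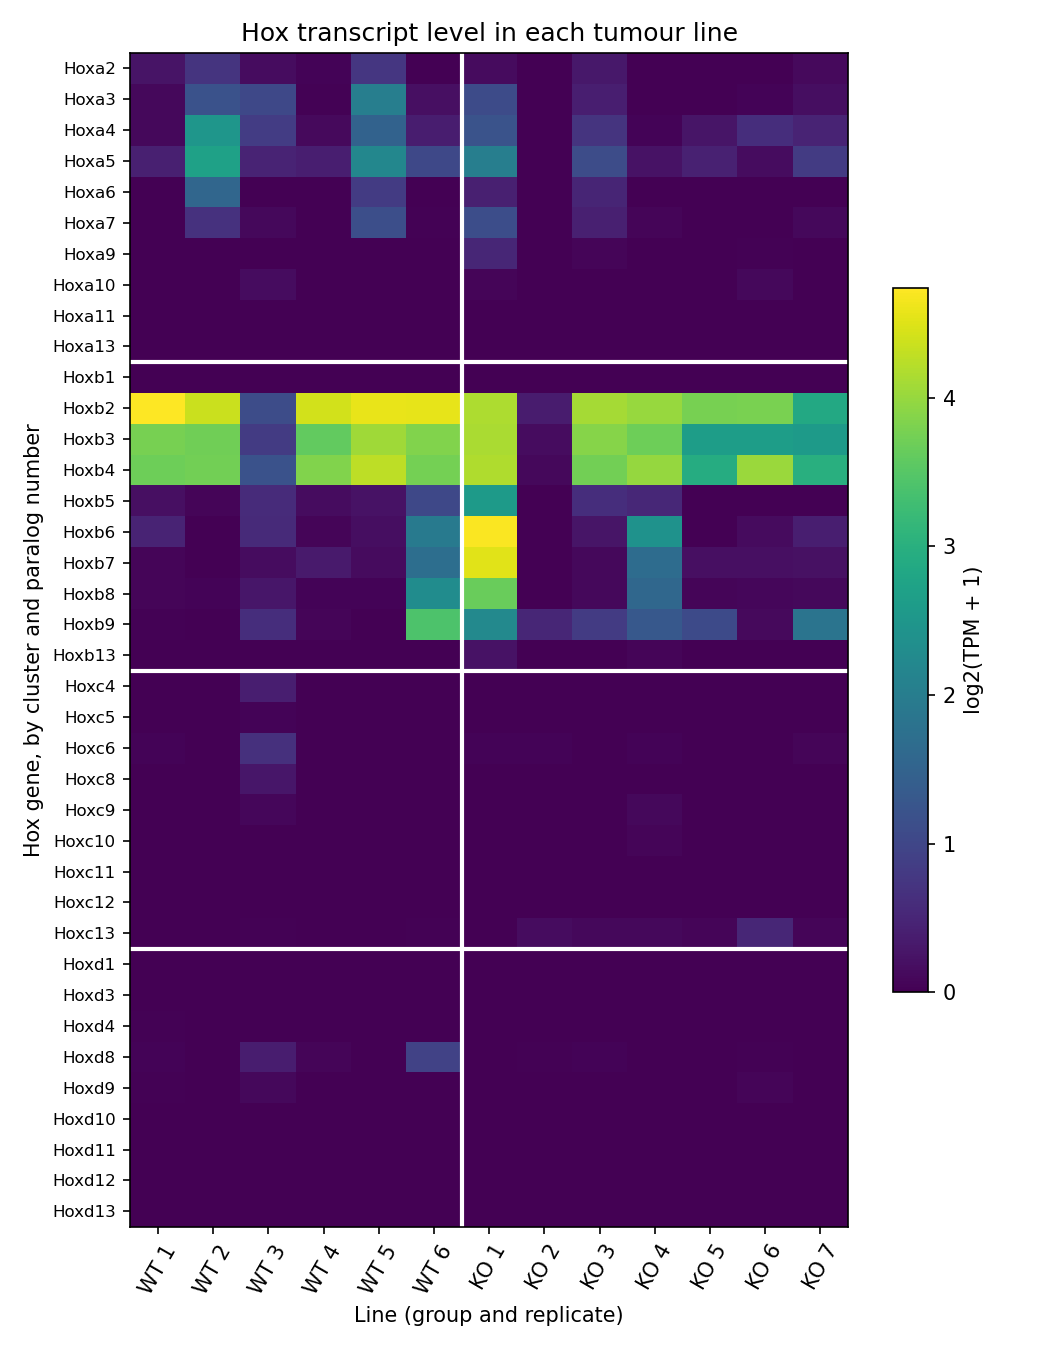
Level of 38 of the 39 Hox genes, as log2(TPM + 1), with genes in rows by cluster and paralog number and the 6 WT and 7 KO lines in columns. Hoxb2 to Hoxb4 are bright in every line but WT 3 and KO 2, and the Hoxc and Hoxd rows stay dark.

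The number of members detected per line ran from 3 to 9 in the WT lines (median 6) and from 0 to 13 in the knockout lines (median 4). Knockout replicate 1 had the most, 13, with a summed Hox level of 128.5 TPM. Knockout replicate 2 had none, and its 39 members summed to 1.1 TPM. The WT sums ran from 10.08 TPM in replicate 3 to 71.56 in replicate 6, inside the range of the knockout lines. By cluster, Hoxb summed to 45.23 ± 21.6 TPM in WT lines (SD, n = 6) and 42.27 ± 37.31 in knockout lines (SD, n = 7). Hoxa summed to 6.49 ± 6.527 and 3.179 ± 3.978 TPM. Both differences between group means were smaller than the SD of either group. Hoxc (0.2117 ± 0.4941 and 0.1486 ± 0.1393) and Hoxd (0.235 ± 0.3631 and 0.01714 ± 0.0236) were under 1 TPM in sum on average. These sums were not tested.

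In the Hoxb cluster (chr11, 96194316 to 96368254 in GRCm38), Hoxb2, Hoxb3 and Hoxb4 carried most of the Hox signal in most lines, a median of 76.75% of all Hox TPM in WT lines and 78.4% in knockout lines. The share of this block was lowest in WT replicate 3 (31.6%), knockout replicate 1 (39.2%) and knockout replicate 2 (42.7%). The start of Hoxb4 is shown for this block, which is on in most lines, and that of Hoxb8 for the neighbouring block that is on in few. Sequences are RefSeq promoter windows of GRCm38.p6, from 250 bases before to 50 after the start, on the gene's strand, and capitals mark matches to any of 5 motifs searched on both strands. The motifs were the E-box CACGTG, the promoter box CCAAT, the TATA box in the form TATAAA, the Hox and Pbx type site TGATNNAT and the AP-1 type site TGANTCA, and none of these contains another.
Hoxb4 at chr11:96318017-96318316, plus strand: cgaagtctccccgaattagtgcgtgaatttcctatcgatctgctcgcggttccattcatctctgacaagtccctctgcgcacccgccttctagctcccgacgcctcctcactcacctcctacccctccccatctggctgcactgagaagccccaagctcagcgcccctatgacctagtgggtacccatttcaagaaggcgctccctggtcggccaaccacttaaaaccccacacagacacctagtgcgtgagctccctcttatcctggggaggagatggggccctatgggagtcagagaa
Hoxb8 at chr11:96281655-96281954, plus strand: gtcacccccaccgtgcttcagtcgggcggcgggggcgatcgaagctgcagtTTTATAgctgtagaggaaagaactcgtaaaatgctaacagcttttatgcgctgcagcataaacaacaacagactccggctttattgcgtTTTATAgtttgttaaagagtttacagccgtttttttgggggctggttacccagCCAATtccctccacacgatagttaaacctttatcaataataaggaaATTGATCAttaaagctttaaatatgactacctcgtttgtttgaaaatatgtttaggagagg
The Hoxb4 window had none of the 5 motifs in these letters, 14 CpG and 58.0% GC. The Hoxb8 window had the CCAAT box, the TATA box letters at 2 places on the minus strand and the Hox and Pbx type site, with 13 CpG and 42.3% GC. Of 32851 promoter windows of this length, the CCAAT box is in 37.4%, the TATA box letters in 13.6%, the Hox and Pbx type site in 8.85%, the AP-1 type site in 7.81% and the E-box in 7.15%, and a match describes letters only. A window was found for 22 of the 39 members.

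Hoxb2 (chr11, 96351632 to 96354020), which in the embryo acts in the hindbrain, had the highest mean TPM of the 39 members. Its lowest, median and highest values were 1.14, 21.5 and 25.75 TPM in the WT lines and 0.28, 12.81 and 16.75 in the knockout lines. The low WT value was replicate 3 and the low knockout value replicate 2. The other 5 WT lines, from 19.69 TPM up, all lay above the other 6 knockout lines in TPM, yet with replicate 3 the groups overlapped. In CPM those 11 lines also overlapped, with knockout replicate 5 at 16.36 above WT replicates 2 and 4 at 15.59 and 15.96. In CPM, Hoxb2 was 14.92 ± 7.023 in WT lines (SD, n = 6) and 10.81 ± 5.793 in knockout lines (SD, n = 7). The log2 fold change was -0.46 (SE 0.69), with an edgeR quasi-likelihood adjusted p of 0.708. Without WT replicate 3 and knockout replicate 2 it was -0.50, with an adjusted p of 0.218.

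Hoxb3 (chr11, 96307101 to 96347930), a regulator of hindbrain and pharyngeal development, ran from 0.77 to 15.74 TPM in WT lines (median 12.38). In knockout lines it ran from 0.11 to 16.6 TPM (median 5.24). Knockout replicates 5, 6 and 7 lay at 5.2, 5.24 and 5.01 TPM, while replicates 1, 3 and 4 lay at 16.6, 13.77 and 12.01, within or above the range of the higher WT lines. The log2 fold change was -0.18 (SE 0.73, adjusted p 0.904).

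Hoxb4 (chr11, 96318267 to 96321638), known for expanding blood stem cells, ran from 1.28 to 18.23 TPM in WT lines (median 12.35) and from 0.08 to 17.08 in knockout lines (median 12.3). The groups covered nearly the same range, and the log2 fold change was 0.06 (SE 0.71, adjusted p 0.965). RefSeq places Hoxb4 within the span of Hoxb3, where the gene spans share 3372 bases, introns included, and whether reads were shared between them was not tested.

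**Figure D2:**
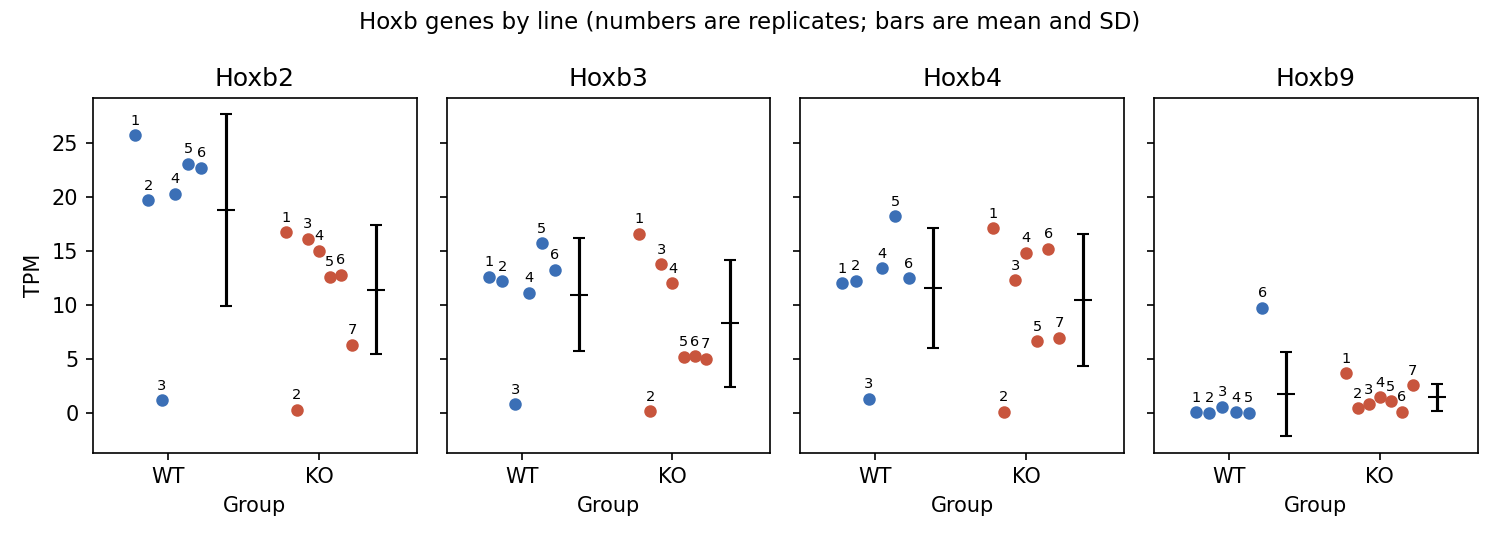
TPM of Hoxb2, Hoxb3, Hoxb4 and Hoxb9 in each line, as points numbered by replicate, with the mean and SD of 6 WT and 7 KO lines as bars. WT 3 and KO 2 lie near 0 for Hoxb2 to Hoxb4, and WT 6 stands alone at 9.75 TPM for Hoxb9.

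WT replicate 3 and knockout replicate 2 were singled out because they were lowest for these genes, so a smaller spread without them follows from that choice. Over the other 11 lines the coefficient of variation was 32.5% for Hoxb2, 37.4% for Hoxb3 and 28.3% for Hoxb4, against 54.8%, 58.3% and 51.5% over all 13. In WT replicate 3 the 3 genes summed to 3.19 TPM (161 reads), and in knockout replicate 2 to 0.47 TPM (24 reads). The other lines held 18.25 to 57.05 TPM. Cbx1, a heterochromatin protein gene 420.4 kb beyond the cluster, was at 51.8 CPM in WT replicate 3 and 30.18 in knockout replicate 2, inside the 27.96 to 60.38 of the other 11 lines. Snx11, 399.3 kb beyond it, was at 7.758 CPM in WT replicate 3, below the 18.82 to 41.23 of those lines, and at 26.12 in knockout replicate 2. Other genes among the 34 tested beside Hoxb had another pattern. Igf2bp1 was at 0.1616 CPM in WT replicate 3 and 0.3144 in knockout replicate 2, below the 0.3669 to 11.3 of the other 11 lines. Prr15l, at 0.2963 and 0.7335 CPM, was also below those lines, which held 0.9701 to 30.96.

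The 2 lines with the low block shared some markers and differed in others. Both had the highest Vim of their group, and Col3a1, a fibrillar collagen gene, was at 18.59 TPM in WT replicate 3 and 7.8 in knockout replicate 2, against at most 0.65 in the other 11 lines. Col6a3 was at 2.74 and 0.81 TPM, against at most 0.04. Epcam, an epithelial adhesion gene, was at 33.39 TPM in knockout replicate 2 and at 233.89 to 529.91 in the other knockout lines. In WT replicate 3 Epcam was at 1234.38 TPM, within the WT range of 495.84 to 1262.47. Vim, the mesenchymal filament vimentin, was at 3774.03 TPM in knockout replicate 2 and 654.25 in WT replicate 3. Knockout replicate 3 and WT replicate 6, with Vim at 705.29 and 542.36 TPM, held 42.19 and 48.43 TPM of Hoxb2 to Hoxb4. Zeb1, a repressor of epithelial genes, was at 21.53 TPM in knockout replicate 2 and 2.33 in WT replicate 3, and the collagen gene Col1a2 at 0.15 and 52.57. Other markers of the mesenchyme list were mixed in these lines. Col1a1, Postn and Pdgfrb were at 66.29, 90.05 and 20.58 TPM in WT replicate 3, against at most 3.52, 74.67 and 10.03 in the other 11 lines. In knockout replicate 2 they were at 1.14, 6.23 and 0.97 TPM. Pdgfra was at 4.74 TPM in knockout replicate 2 and 1.85 in WT replicate 3, against at most 2.65 in the other 11 lines. Prrx1 and Twist1 were at 6.09 and 20.17 TPM in WT replicate 3, the lowest of the WT lines. In knockout replicate 2, Twist1 was at 8.4 TPM and Thy1 at 0.05, inside the knockout ranges, while Prrx1 was the highest of that group at 35.74. Basal markers differed most between the 2 lines, with a sum of 23520 TPM in knockout replicate 2, the highest of all lines, and 109.3 in WT replicate 3. Krt5 was at 9481.88 and 0.09 TPM and Krt14 at 8727.86 and 63.94, while Oxtr of that list was at 0 and 15.13. The part of all these markers in the low block was not tested. In bulk RNA, fewer cells expressing a gene and less RNA per cell cannot be told apart.

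**Figure D3:**
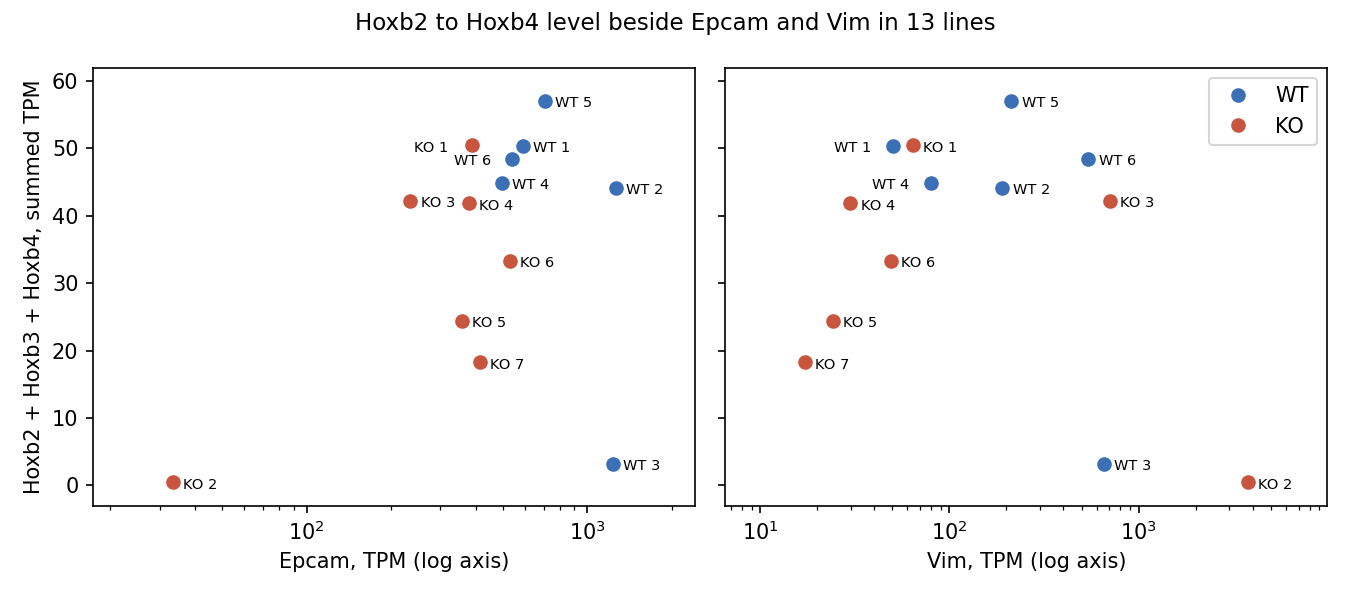
Summed TPM of Hoxb2, Hoxb3 and Hoxb4 (vertical axis) beside Epcam (left) and Vim (right) TPM on log axes, with 1 point a line. KO 2 combines 0.47 TPM of the block with low Epcam and high Vim, while WT 3 combines 3.19 TPM with high Epcam.

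Hoxb5, Hoxb6, Hoxb7 and Hoxb8, which lie next to each other and act in the trunk of the embryo, were on in 3 lines, 1 WT and 2 knockout. Summed over the 4 genes, knockout replicate 1 held 63.77 TPM, WT replicate 6 held 10.13 and knockout replicate 4 held 9.01. The other 10 lines held 0 to 1.3 TPM. In knockout replicate 1, Hoxb6 was at 25.2 TPM, Hoxb7 at 21.96, Hoxb8 at 11.59 and Hoxb5 at 5.02, so that Hoxb6 and Hoxb7 exceeded Hoxb2 to Hoxb4 in that line. WT replicate 6 had another order, with Hoxb8 at 3.94 TPM, Hoxb6 at 2.88, Hoxb7 at 2.27 and Hoxb5 at 1.04. In knockout replicate 4 Hoxb6 led at 4.37 TPM, Hoxb7 was at 2.2, Hoxb8 at 1.99 and Hoxb5 at 0.45. These 4 genes did not pass the filter on low counts and were not tested in the main comparison.

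Hoxb9 (chr11, 96271330 to 96276595), at the 5′ side of that block, followed it in part. WT replicate 6 was the highest line at 9.75 TPM, and the other 5 WT lines lay between 0 and 0.54. Knockout lines ran from 0.09 to 3.68 TPM with a median of 1.08, against a WT median of 0.035. Knockout replicates 5 and 7 held 1.08 and 2.52 TPM of Hoxb9 with 0.18 and 0.55 TPM of Hoxb5 to Hoxb8 in sum. In knockout replicate 2, Hoxb9 was the highest Hox gene, at 0.43 TPM from 27 reads. The log2 fold change was -0.10 (SE 1.40, adjusted p 0.971), and it rested on WT replicate 6: without that line it was 3.67, with an adjusted p of 0.101. Of the remaining Hoxb genes, Hoxb1 had no read and Hoxb13, a prostate and tail gene, reached 0.18 TPM in knockout replicate 1.

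The Hoxa cluster (chr6) was on at lower levels. Hoxa5 (chr6, 52201754 to 52204587), a gene of lung and skeletal patterning, had the highest mean TPM of the cluster, and its promoter window is shown for the block of Hoxa2 to Hoxa7 described next.
Hoxa5 at chr6:52204538-52204837, minus strand: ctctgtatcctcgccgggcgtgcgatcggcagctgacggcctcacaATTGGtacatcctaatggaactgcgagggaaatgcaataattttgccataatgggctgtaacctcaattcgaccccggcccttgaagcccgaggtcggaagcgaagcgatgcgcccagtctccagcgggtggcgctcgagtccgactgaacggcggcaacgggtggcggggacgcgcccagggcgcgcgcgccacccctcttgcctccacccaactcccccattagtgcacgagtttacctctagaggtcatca
This window had 29 CpG, 61.7% GC and CCAAT as its only match, and the median over the 24 Hox windows was 14.5 CpG, against 7.0 over all windows.

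Hoxa5 was at 0.34, 5.57, 0.39, 0.31, 3.6 and 1.05 TPM in WT replicates 1 to 6. In knockout replicates 1 to 7 it was at 3.09, 0, 1.15, 0.18, 0.35, 0.11 and 0.77 TPM. The high lines were WT replicates 2 and 5 and knockout replicate 1, and the groups overlapped. The log2 fold change was -0.99 (SE 1.03, adjusted p 0.571), -0.28 without WT replicate 2 and -1.87 without knockout replicate 1. Hoxa4, whose protein acts beside it in the neck and trunk, was highest in the same WT lines, at 4.65 and 1.8 TPM, and at 1.33 in knockout replicate 1. Its log2 fold change was -1.32 (SE 1.04, adjusted p 0.445), and -0.27 without WT replicate 2.

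Summed over Hoxa2 to Hoxa7, WT replicates 2 and 5 held 14.71 and 11.12 TPM, knockout replicate 1 held 7.15 and knockout replicate 3 held 3.08. The other lines held 0 to 2.41 TPM. Hoxa3, needed for the thymus and parathyroid, reached 3.08 TPM in WT replicate 5. Hoxa6 reached 1.95 TPM in WT replicate 2, and Hoxa7 reached 1.19 in WT replicate 5 and 1.18 in knockout replicate 1. Hoxa2, a gene of the branchial arches, stayed at or under 0.69 TPM. RefSeq spans of Hoxa3 overlap those of Hoxa4, Hoxa5 and Hoxa6 by 2022, 2834 and 3815 bases, introns included, and whether reads were shared between these genes was not tested. WT replicates 4 and 5, with a number common to their titles, held 0.45 and 11.12 TPM of this block but 44.84 and 57.05 TPM of Hoxb2 to Hoxb4.

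The non-coding RNA Mira, transcribed in the Hoxa cluster, was listed at 1.02 TPM in WT replicate 2, 1.52 in WT replicate 5, 2.1 in knockout replicate 1 and 0.68 in knockout replicate 3. Those are the 4 lines with the highest Hoxa2 to Hoxa7 sums, and Mira was at 0.15 TPM in WT replicate 3 and 0 in the other 8. Of 16 Evx genes and cluster non-coding RNAs in the tables, 13 were at 0 in every line, Hotair and Hottip among them, and none passed the filter. The gene counts are no measure of mature miRNAs, and the labels do not state strand use in the counting, so antisense RNAs cannot be told apart from the Hox genes they overlap.

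On the 5′ side of Hoxa, Hoxa9 had 31 reads (0.42 TPM) in knockout replicate 1, 7 reads in the other knockout lines together and 1 in the WT lines. Hoxa10 stayed at or under 0.11 TPM, and Hoxa11 and Hoxa13 had no read.

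The Hoxc cluster (chr15, 102921131 to 103036856) gave few reads. Hoxc4, Hoxc5, Hoxc6 and Hoxc8 together had 44 reads (1.14 TPM) in WT replicate 3 and at most 0.05 TPM in any other line. Hoxc6, a gene with a known role in mammary and thoracic development, was the highest of them there at 0.57 TPM, beside Hoxc4 at 0.32 and Hoxc8 at 0.22. The line with the most Hoxc4 to Hoxc8 reads was thus the WT line with a low Hoxb2 to Hoxb4 block. Knockout replicate 2, also low in that block, had 1 such read. The ratio of the mean Hoxc sums, knockout to WT, was 0.702 with WT replicate 3 and 14.9 without it. The second ratio divides by a value near 0, since the sums of the other WT lines were 0 to 0.03 TPM. Hoxc13 (chr15, 102921131 to 102928814), a regulator of hair and nail keratins, had the highest mean TPM of the cluster. It had 0, 0, 1, 0, 0 and 1 reads in WT replicates 1 to 6 and 0, 6, 4, 4, 3, 26 and 3 in knockout replicates 1 to 7. Its highest level was 0.42 TPM in knockout replicate 6, and 6 of 7 knockout lines had more reads than any WT line. Hoxc11 and Hoxc12 had no read.

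Hoxd (chr2, 74668225 to 74765142) had the most members without a read, 5 of 9. Hoxd8 (chr2, 74704615 to 74707933), a gene of the trunk, had the highest mean TPM in it, with 41 reads (0.92 TPM) in WT replicate 6 and 10 reads (0.3 TPM) in WT replicate 3. Its other lines had 0 to 2 reads. Hoxd9 stayed at or under 0.07 TPM, and Hoxd1, Hoxd3, Hoxd10, Hoxd12 and Hoxd13 had no read.

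Between genotypes, no Hox gene passed the test. Of the 39 members, 7 passed the filter on low counts, Hoxa4, Hoxa5, Hoxb2, Hoxb3, Hoxb4 and Hoxb9 among them, and 0 of 7 had an adjusted p under 0.05 by edgeR's quasi-likelihood test, where 8.51% of the 13058 genes tested did (4.33% higher and 4.17% lower in knockout lines). None of the 7 had an unadjusted p under 0.05, against 26.3% of all genes tested. The groups overlapped in CPM for all 7, and did not overlap for 4.05% of all genes tested. DESeq2 called 0 of the 7 (16.2% of all genes), with 0 at an unadjusted p under 0.05 (29.1% of all genes), and limma-voom called 0 (7.35%), with 1, Hoxb9, at an unadjusted p under 0.05 (25.2% of all genes) and an adjusted p of 0.182. The 95% intervals were wide, from -1.94 to 1.01 for Hoxb2 and from -3.11 to 2.90 for Hoxb9 on the log2 scale, and a p that misses the threshold does not show that the groups were alike.

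**Figure D4:**
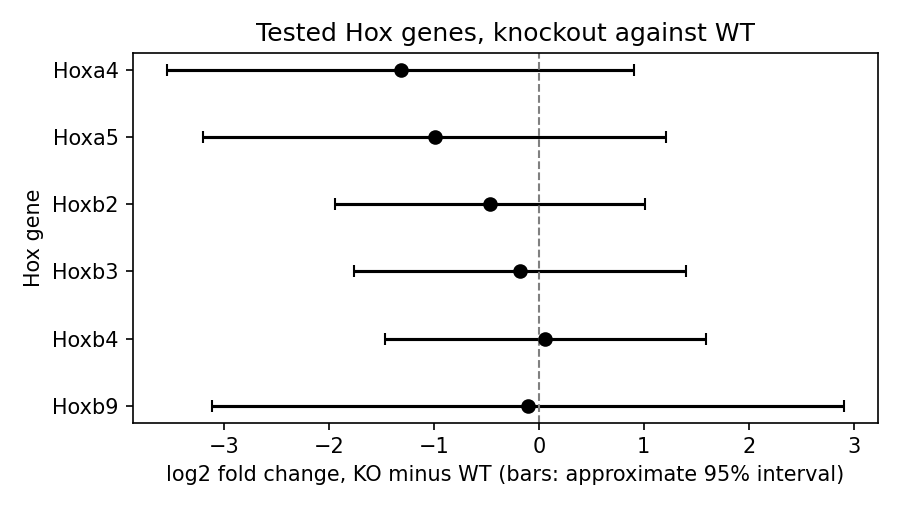
Log2 fold change, KO minus WT, of 6 of the 7 Hox genes tested by edgeR, with approximate 95% intervals as bars. Every interval spans 0, and the interval of Hoxb9, from -3.11 to 2.90, is the widest of those shown.

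Without the filter, the 29 members with any read were tested and 0 were called (5.89% of all genes), with 5 at an unadjusted p under 0.05 (24.2% of all genes). Those 5 were Hoxa9 (adjusted p 0.104) and Hoxc13 (0.0547), with more reads in knockout lines, and Hoxc4 (0.196), Hoxc8 (0.204) and Hoxd8 (0.0834), with more in WT lines. As the reads above show, Hoxa9 rested mostly on 1 line, Hoxc4 and Hoxc8 on 1 line and Hoxd8 on 2 lines. For Hoxc13, 26 of the 46 reads in knockout lines came from replicate 6, and the other knockout lines had 0 to 6.

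Genes that act with or on the Hox clusters were counted against the same background of 8.51% of all genes called. Of 10 tested TALE cofactors 1 was higher and 0 lower in knockout lines (median log2 fold change 0.284, against 0.00755 over all genes tested). That gene was Meis1, at 2.18 to 3.77 TPM in WT lines and 2.05 to 41.37 in knockout lines, with the highest value in knockout replicate 2, the line with the least Hox RNA. Its log2 fold change was 2.08 (SE 0.61, adjusted p 0.0496). Without knockout replicate 2 it was 1.10 (adjusted p 0.0438), and the call was lost when any WT line or knockout replicate 1, 3, 6 or 7 was left out (adjusted p 0.051 to 0.0932) and under limma-voom (adjusted p 0.161). It was also lost with scaling by library size alone, without the filter and with a filter of CPM above 1 in at least 6 lines. The same held on log2(TPM + 1), on log2(TPM + 0.1) and with WT replicates 4 and 5 summed.

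None of 30 Polycomb genes was called (median 0.0829), and the lowest p-values were those of Rybp (-0.58, adjusted p 0.111) and Rbbp4 (0.36, adjusted p 0.139). None of 18 Trithorax and histone demethylase genes was called (median -0.162), with Rbbp5 (-0.32, adjusted p 0.189) and Kmt2c (-0.52, adjusted p 0.216) lowest in p. Among 14 tested retinoid and Cdx genes 1 was higher and 1 lower (median 0.46). Aldh1a1, an enzyme that makes retinoic acid, rose from 0.21 to 0.61 TPM in WT lines to 0.88 to 50.73 in the knockout group, with no overlap (log2 fold change 5.02, SE 1.01, adjusted p 0.0109). Rarb, a retinoic acid receptor, fell from 0.74 to 12.11 TPM to 0.08 to 0.95 (log2 fold change -3.52, SE 0.77, adjusted p 0.0153). Under limma-voom both calls were lost (adjusted p 0.0895 for Aldh1a1 and 0.0649 for Rarb).

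Within 1 Mb of the clusters, some genes beside each cluster were called, and their counts are read against the 8.51% of all genes tested that were called. A share near that background is no result about the flanks. Beside Hoxa, 1 of 8 tested genes was lower and 0 higher. It was Jazf1, a zinc finger gene 507.2 kb away, at 4.034 ± 3.518 CPM in WT lines (SD, n = 6) and 0.2179 ± 0.2646 in knockout lines (SD, n = 7), with no overlap (log2 fold change -4.20, adjusted p 0.00925). Beside Hoxd, 1 of 6 was lower, Chn1, which encodes a Rac-regulating protein, at 5.584 ± 1.409 and 0.402 ± 0.2614 CPM with no overlap (-3.79, adjusted p 0.00279). Beside Hoxb, 3 of 34 were higher and 0 lower. Slc35b1, a transporter gene, rose with no overlap (0.79, adjusted p 0.00676), and Mrpl10, a mitochondrial ribosomal protein gene, was called in counts (0.55, adjusted p 0.0221) but not on log2(TPM + 1) (adjusted p 0.12).

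Beside Hoxc, 4 of 30 were higher and 2 lower, and 4 of these 6 were keratin genes of the locus next to it. Krt18, a keratin of simple epithelium, was at 2059 ± 318.4 CPM in WT lines (SD, n = 6) and 856.9 ± 223.7 in knockout lines (SD, n = 7), with no overlap (-1.26, adjusted p 0.00263). Krt4, a keratin of stratified epithelium, was higher in knockout lines (6.85, adjusted p 0.00641), though knockout replicate 2 at 0.07859 CPM lay within the WT range, and limma-voom did not call it (adjusted p 0.171). Krt79 (4.58, adjusted p 0.0312) and Itgb7 (4.12, adjusted p 0.0336) were called in all lines but stayed called in 8 and 7 of the 13 fits that left out 1 line. Krt79 was lost without WT replicates 1, 3, 5 or 6 or knockout replicate 7, and Itgb7 without WT replicates 1, 2, 4, 5 or 6 or knockout replicate 1. These adjusted p-values ran from 0.0512 to 0.0698. Both calls were also lost with WT replicates 4 and 5 summed (0.0509 and 0.0609), and that of Itgb7 under limma-voom (0.11). On log2(TPM + 1) and log2(TPM + 0.1) Itgb7 was not called either. Jazf1, Chn1, Slc35b1 and Krt18 kept their calls in every alternative run at a threshold of 0.05.

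**Figure D5:**
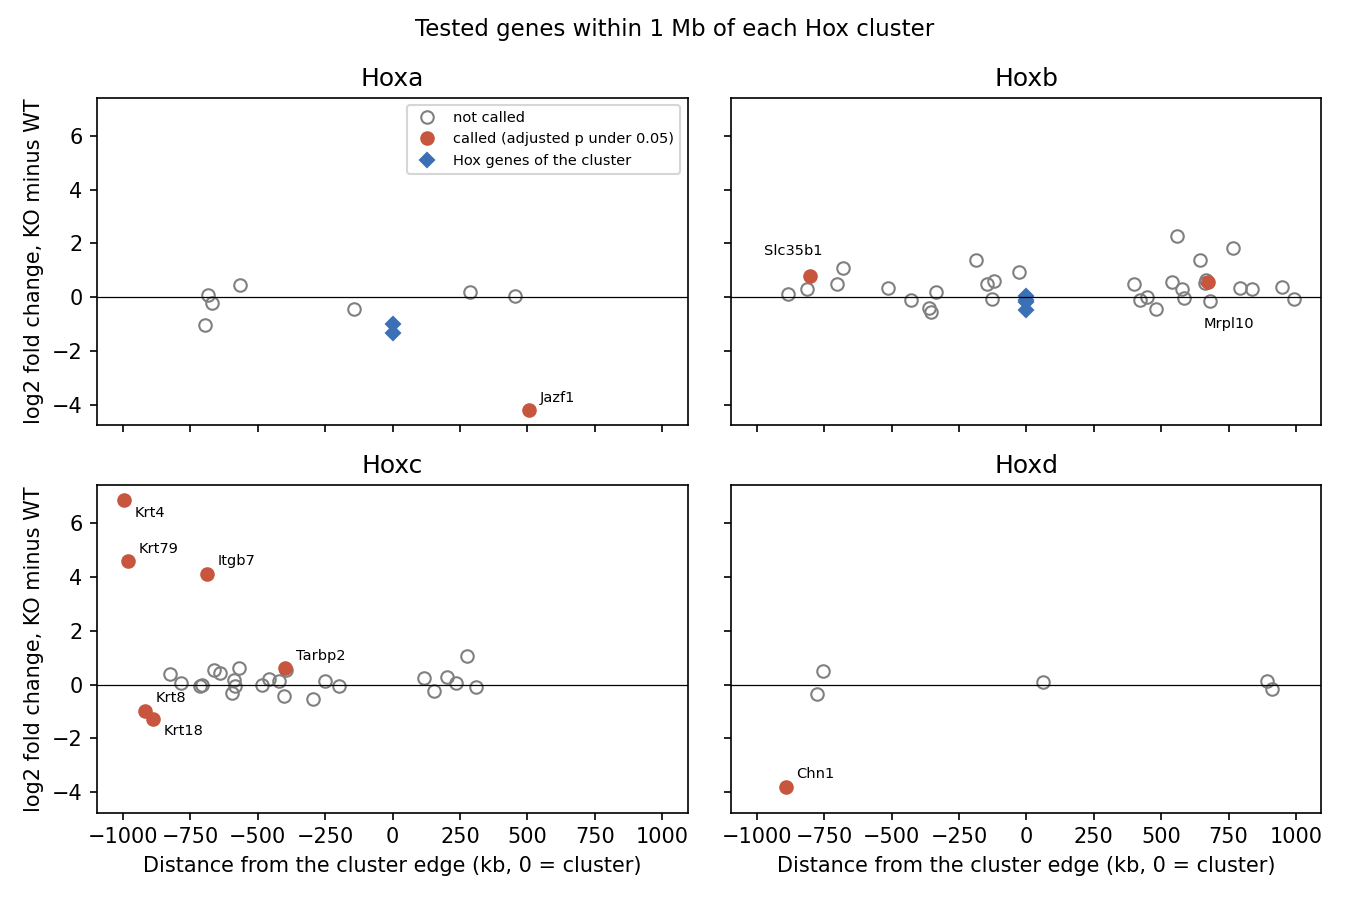
Log2 fold change, KO minus WT, of tested genes reported here within 1 Mb of each Hox cluster by distance from the cluster edge in kb, with the tested Hox genes as diamonds at 0. Called genes, filled and named, lie away from the clusters, and Jazf1 and Chn1 are the lowest points.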

How the data were processed

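RNA-seq of 6 WT and 7 JNK knockout mouse mammary tumour lines was used. The deposited expected counts per gene were made by the authors with RSEM after trimming with cutadapt, and the deposited TPM of the same genes likewise, per the submitters' processing notes, which name the builds mm10 and GRCm38. The aligner, annotation release, strand setting and tool versions were not given in the sources used here. Expected counts were rounded to whole numbers, filtered with filterByExpr, scaled by TMM and tested with edgeR 4.0.16 (quasi-likelihood F test, group only, R 4.3.3), with Benjamini-Hochberg adjustment over 13058 genes and a threshold of 0.05. Libraries held 38298602 to 46689809 reads. Alternatives were DESeq2 1.42.0, limma 3.58.1 (voom, and log2(TPM + 1) or log2(TPM + 0.1)), other scalings, filters and thresholds, WT replicates 4 and 5 summed, and each line left out. On simulated counts for 13058 genes in this comparison, 25 of 100 genes changed by a log2 size of 1 and 73 of 100 changed by 2 were recovered. TPM gave levels, with detection at 1 TPM. Positions and promoters came from RefSeq GRCm38.p6, where all 39 members were found by symbol.

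The members and lists were chosen with earlier results of these data known. Genes were named by rule: Hox members called or highest in mean TPM in a cluster in full and the others by range, up to 4 called genes of each list or cluster flank, or the 2 with the lowest p where none was called. Members with an evident pattern across lines were also described, after their values were seen. Results of some genes are not reported here.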

Additional observations from a re-analysis of the deposited data

Results flagged for a closer look

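Of 38 sets of values (a gene or cluster sum in the lines of 1 group) checked for a line far from the others, 15 held one, while chance gives about 1 in 20 for normally distributed values, which TPM near 0 need not be. In WT replicate 3, Hoxb2 (1.14 TPM, other WT lines 19.69 to 25.75), Hoxb3 (0.77, others 11.14 to 15.74) and Hoxb4 (1.28, others 11.99 to 18.23) were far below the other WT lines, and the Hoxc sum of 1.22 TPM was far above them (0 to 0.03). In WT replicate 6, Hoxb6 (2.88 TPM, others 0 to 0.47), Hoxb7 (2.27, others 0 to 0.26), Hoxb8 (3.94, others 0.03 to 0.22) and Hoxb9 (9.75, others 0 to 0.54) were far above. In knockout replicate 1, Hoxb5 (5.02 TPM, other knockout lines 0 to 0.53), Hoxb6 (25.2, others 0 to 4.37), Hoxb7 (21.96, others 0 to 2.2) and Hoxb8 (11.59, others 0 to 1.99) were far above, as were Hoxa3 (1.12, others 0 to 0.32), Hoxa5 (3.09, others 0 to 1.15) and Hoxa7 (1.18, others 0 to 0.34). Neighbouring genes are not independent, and 11 of the 15 lie in Hoxb5 to Hoxb9 or Hoxb2 to Hoxb4.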

How the results depend on the processing

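No paired analysis was possible because the labels give no replicate numbers. No Hox member was called in any of 25 alternatives. All genes called higher (566) became 1130 with DESeq2, 286 on log2(TPM + 1), 322 on log2(TPM + 0.1), 96 at a threshold of 0.01 and 324 to 649 with 1 line left out. Those lower (545) became 977, 998, 981, 116 and 316 to 592. The sign turned for Hoxb4 (0.06) with limma-voom (-0.46), log2(TPM + 1) (-0.28) and log2(TPM + 0.1) (-0.55), and for Hoxb9 (-0.10; 3.33, 0.43 and 1.70). With 1 line left out, Hoxb3 (-0.18) ran from -0.43 to 0.0403, Hoxb4 from -0.17 to 0.28 and Hoxb9 from -0.50 to 3.67. The WT median of members detected (6) was 9 at 0.5 TPM and 10 at 10 reads. The Hoxc ratio of knockout to WT (0.702) was 10.0 by medians, 0.488 to 14.9 with 1 line left out and 15.0 without WT replicate 3 and knockout replicate 2, an alternative chosen after seeing the data. The ratios of 10.0, 14.9 and 15.0 divide by WT values near 0 TPM. The causes were not tested. The 32 members below the filter include 10 with no read.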
